A study of Mus musculus with 12 samples.

Results

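Insulin-like growth factor 1 (Igf1), its receptor (Igf1r) and the 6 IGF binding proteins Igfbp2 to Igfbp7 were examined in single-cell RNA-seq data from mouse mammary gland stroma. These 8 genes were taken by their symbols from the 27998 genes in the count matrices, and all 8 were found. The matrices came from 12 libraries, with 1 library for each of 12 treatment groups of C57BL/6J females aged 43 weeks. The fourth mammary glands had been dissociated after lymph node removal, so that adipocytes were largely lost, and the labels give no number of mice per library.

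Of the 12 groups, 11 had received 4-vinylcyclohexene diepoxide (VCD), a compound that destroys ovarian follicles, at 160 mg/kg/day for 15 days, and Intact mice had not. The experimental diets, with the low PBDE dose where given, began 100 days after the first VCD dose. The hormones, ICI and the high PBDE dose were given in the final week of the diet period, before the glands were collected. VCD_Vehicle received sesame oil injections and control food. VCD_E2 received estradiol (E2) at 1 µg per animal per day for 1 week, and VCD_E2_P4 received the same E2 with progesterone (P4) at 1 mg per animal per day. VCD_E2_ICI received the E2 and a single 5 mg dose of ICI (fulvestrant), an estrogen receptor antagonist. Polybrominated diphenyl ethers (PBDEs), flame retardants given in food, were combined with the hormones. VCD_Low_PBDE, VCD_Low_E2 and VCD_Low_E2_P4 received a low dose for 20 weeks, with 0.05 mg/kg/day of the main congener. VCD_High_PBDE, VCD_High_PBDE_E2 and VCD_High_PBDE_E2_P4 received a high dose for 1 week, with 1 mg/kg/day of that congener. With PBDEs, dose and length of exposure cannot be told apart. VCD_Vehicle_NormEnv was a vehicle group whose plastic cages could have been a source of PBDEs. Leaving out Intact, VCD_E2_ICI and VCD_Vehicle_NormEnv, 9 libraries form a full layout of 3 hormone levels (none, E2, E2_P4) by 3 PBDE levels (none, low, high), and every test of a treatment below rests on these 9.

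IGF1 is a growth factor made in the liver under growth hormone and also locally in the stroma of many organs, where it acts on neighbouring epithelium. It signals through IGF1R, a receptor tyrosine kinase. In the mammary gland, stromal IGF1 is a mediator of the ductal growth that growth hormone and estrogen bring about. The binding proteins are secreted. They hold IGFs away from the receptor or carry them to it, and proteases such as PAPPA release the bound ligand. IGFBP3 is the main carrier in blood, IGFBP4 is mostly an inhibitor that PAPPA cleaves, IGFBP5 is known in the gland for its rise during involution, IGFBP6 prefers IGF2, and IGFBP7 binds IGFs weakly and is a matrix protein of vessels and stroma.

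The libraries held 58620 cell barcodes, between 2497 and 10006 each, with 41737881 to 109224969 UMIs (unique molecular identifiers, each counting 1 captured RNA molecule) per library. Of 46257 cells that passed filters, 31110 were fibroblasts with a median of 16567 UMIs, and 26243 of these (84.4%) fell into 1 of 4 gates. Each gate was set by 7 marker genes, none of them a member: 11399 cells were Dpp4-gated, 7262 Fabp4-gated, 3814 Tnc-gated and 3768 Gdf10-gated. Among the fibroblasts, 2440 (7.84%) lay within 0.1 of the score margin that decides a gate. The Tnc gate is the least exact of the 4, since only 22.5% to 58.3% of its cells in a library had a UMI of Tnc itself. Barcodes shared between libraries fell in blocks: Intact, VCD_Vehicle, VCD_E2, VCD_E2_P4 and VCD_Low_PBDE shared 95 to 185 with each other, VCD_Low_E2 and VCD_Low_E2_P4 shared 84, VCD_High_PBDE, VCD_Vehicle_NormEnv and VCD_E2_ICI shared 27 to 35, and other pairs 1 to 20. VCD_Low_PBDE and VCD_High_PBDE thus shared no block with the hormone libraries of their dose, nor did VCD_E2_ICI with VCD_E2, and the labels name no batch. No high-dose library shared a block with VCD_Vehicle, VCD_E2 or VCD_E2_P4, the layout libraries without PBDEs. At most 15 passing cells were shared by any of the 66 pairs, and without the 556 passing cells with a shared barcode every call of a member was kept.

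The members lie on 6 chromosomes (GRCm38, GENCODE M21). Igf1 is on chromosome 10 (87858265 to 87937042, plus strand), Igf1r on chromosome 7 (67952827 to 68233668, plus strand), Igfbp6 on chromosome 15 (102144362 to 102149511, plus strand) and Igfbp7 on chromosome 5 (77349240 to 77408041, minus strand). Igfbp3 (7206086 to 7213923, minus strand) and Igfbp4 (99041244 to 99054392, plus strand) are far apart on chromosome 11. Igfbp2 (72824503 to 72852474, plus strand) and Igfbp5 (72857932 to 72874884, minus strand) are neighbours on chromosome 1 that end toward each other, with 5457 bases between them. Of these neighbours, Igfbp2 was highest and Igfbp5 lowest in the same fibroblast gate, as described below.

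The results turn mainly on Igfbp3 in the Tnc gate, Igfbp4 in the Fabp4 gate and Igfbp7 in the Dpp4 gate, the hormone changes with the lowest adjusted p of a member in each of these gates. Their promoters are shown for this reason, each as 250 bases before and 50 bases from the transcription start (RefSeq, GRCm38.p6), 5′ to 3′ on the gene's own strand. Capitals mark a TATA box (TATAAA) in Igfbp4 and GC boxes (GGGCGG, either strand) in Igfbp7.
Igfbp3, chr11:7213874-7214173, minus strand: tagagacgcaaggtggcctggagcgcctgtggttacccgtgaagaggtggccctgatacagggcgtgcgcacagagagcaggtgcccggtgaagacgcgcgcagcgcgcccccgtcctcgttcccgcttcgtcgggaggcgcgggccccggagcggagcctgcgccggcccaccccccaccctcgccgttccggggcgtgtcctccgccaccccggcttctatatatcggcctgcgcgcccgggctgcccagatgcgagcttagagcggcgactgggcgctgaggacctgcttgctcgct
Igfbp4, chr11:99040994-99041293, plus strand: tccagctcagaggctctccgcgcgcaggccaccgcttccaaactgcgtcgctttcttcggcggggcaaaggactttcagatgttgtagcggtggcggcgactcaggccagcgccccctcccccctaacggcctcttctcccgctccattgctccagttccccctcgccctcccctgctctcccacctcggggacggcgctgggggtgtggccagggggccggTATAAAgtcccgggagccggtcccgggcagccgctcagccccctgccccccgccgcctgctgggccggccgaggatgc
Igfbp7, chr5:77407996-77408295, minus strand: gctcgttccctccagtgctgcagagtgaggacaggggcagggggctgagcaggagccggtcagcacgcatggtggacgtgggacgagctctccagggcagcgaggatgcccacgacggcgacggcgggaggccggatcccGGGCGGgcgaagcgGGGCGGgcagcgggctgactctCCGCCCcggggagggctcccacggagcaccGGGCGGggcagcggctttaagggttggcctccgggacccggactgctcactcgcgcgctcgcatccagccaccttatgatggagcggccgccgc

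The 9 promoters that RefSeq lists for the 8 members were searched on both strands for 5 motifs. The estrogen response element (GGTCA and TGACC with 3 bases between them), held by 0.0707% of 32544 mouse promoters of this length, was in none of them, nor was the progesterone and glucocorticoid response element (GNACA and TGTNC, likewise 3 bases apart), held by 0.476%. The TATA box of Igfbp4 starts 28 bases before its start site, and 13.6% of all promoters hold that motif. Igfbp7 has 4 GC boxes, at -110, -96, -74 and -44, against 35.9% of promoters with at least 1 such box. Other members held these motifs too: Igfbp6 a TATA box match on the reverse strand at -148, the first Igfbp2 promoter 3 GC boxes and Igf1r 2. The AP-1 site (TGAGTCA or TGACTCA), held by 5.19% of promoters, was in the second Igfbp2 promoter only. The 3 printed promoters are rich in G and C, at 71.7% for Igfbp3, 71.3% for Igfbp4 and 73.3% for Igfbp7, with a median of 53.0% over all promoters. A match describes letters in this window and is not a site shown to be bound.

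To see which cells expressed each member, UMIs were summed over the cells of a class in each library and scaled by the class total to CPM (counts per 1e6 UMIs of that class and library). Igf1 was highest in Gdf10-gated fibroblasts, with a median of 411 CPM over the 12 libraries (330 to 481). It followed at 277 CPM (191 to 362) in Tnc-gated fibroblasts and 228 CPM (165 to 452) in macrophages. The ranges of these 3 classes overlap their neighbours in the order. Fabp4-gated and Dpp4-gated fibroblasts held less, at medians of 100.1 and 84.5 CPM, and T and NK cells were near background at 2.82 and 1.88 CPM. Macrophages were thus the only immune class, among the macrophages, T cells and NK cells that could be read by library, with Igf1 at a fibroblast level.

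Igf1r was present in all 4 fibroblast gates at similar levels. Its medians were 83.4 CPM in the Dpp4 gate, 80.6 in the Tnc gate, 69.3 in the Gdf10 gate and 67.3 in the Fabp4 gate, with overlapping ranges. In macrophages it was at 34.9 CPM and in T cells at 12.2 CPM. Pooled over libraries, 70 Schwann-like cells had Igf1r at 110 CPM and 125 endothelial-like cells at 67.1 CPM.

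The binding proteins divided the gates between them. Igfbp5 and Igfbp6 marked the Dpp4 gate: Igfbp5 was at 4946 CPM there (3728 to 6814) and at medians of 414 to 777 CPM in the other gates, and Igfbp6 was at 5076 CPM (4044 to 5766) against 1806 to 2528 CPM. For both, no library of another gate reached the lowest Dpp4-gated library. Igfbp7 had the reverse pattern, at 246 CPM (148 to 556) in the Dpp4 gate and at 1794, 2066 and 2830 CPM in the Fabp4, Tnc and Gdf10 gates, again without overlap.

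Igfbp2 was found almost only in the Tnc gate among the fibroblasts. Its median was 143 CPM (61.6 to 278) there and at most 0.36 CPM in the other 3 gates, macrophages, T cells and NK cells, whose highest single library was at 18.1 CPM. Igfbp3 was highest in the Gdf10 gate at 837 CPM (437 to 1733), with no overlap with the Dpp4 gate at 116 CPM (75.9 to 369). In the Tnc gate Igfbp3 had the widest relative range of any member and gate with a median above 1 CPM, from 11.2 to 641 CPM, and the hormone groups divide that range. Igfbp4 was at 1406 CPM in the Dpp4 gate, 898 in the Tnc gate and 773 in the Gdf10 gate, and lowest among fibroblasts at 184 CPM in the Fabp4 gate, below the 310 CPM of macrophages with overlapping ranges.

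**Figure D1:**
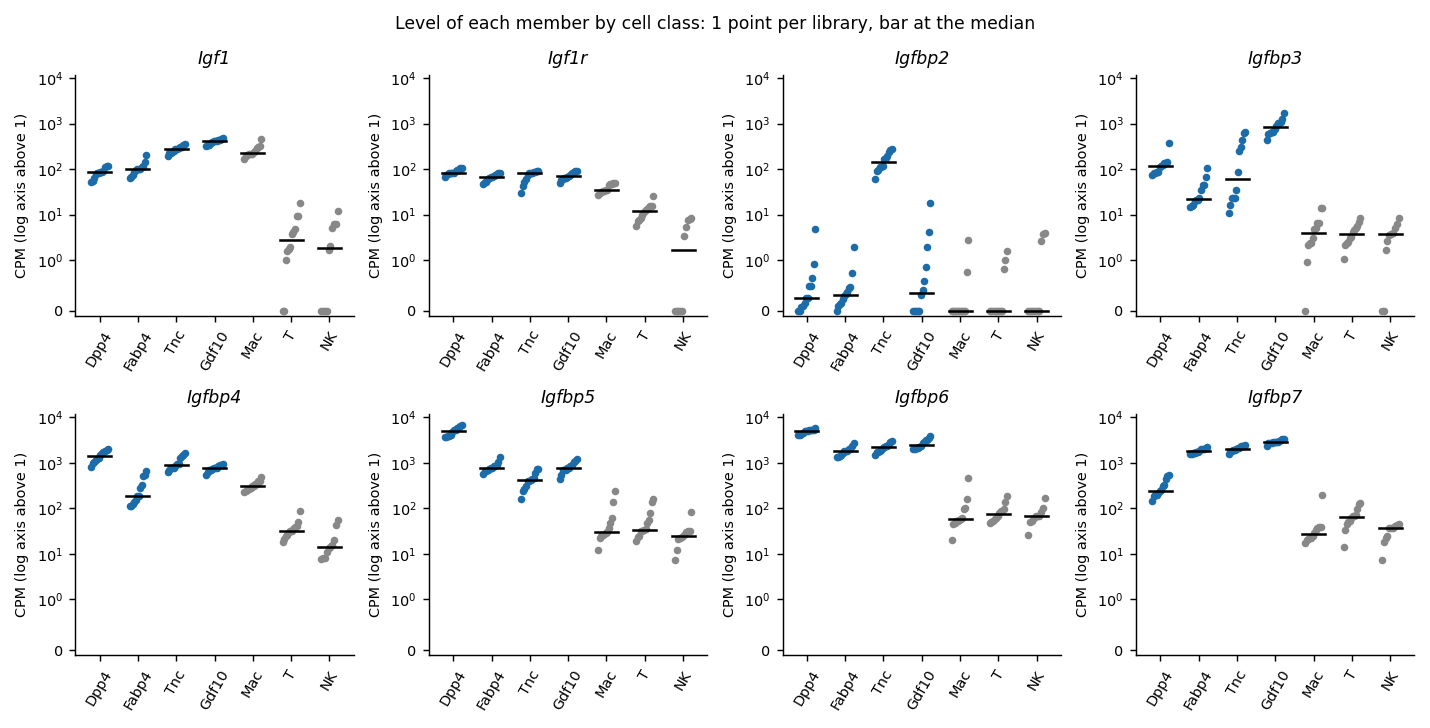
Level of each member in CPM (vertical axis, logarithmic above 1) in the 4 fibroblast gates (blue) and in macrophages, T cells and NK cells (grey), with 1 point per library and a bar at the median. Igfbp2 stands at a median of 143 CPM in the Tnc gate and near 0 elsewhere, while Igfbp7 is lowest among fibroblasts in the Dpp4 gate.

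Classes with too few cells to read by library were pooled over all 12 libraries, so the spread between libraries is not shown. VCD_Low_E2_P4 alone gave 55 of the 125 endothelial-like cells and 9 of the 17 basal epithelial-like cells. Igfbp7 was at 4556 CPM in 50 pericyte-like cells and at 3466 CPM in 125 endothelial-like cells, above the median of every fibroblast gate. Igfbp5 was at 1323 CPM in the endothelial-like cells, and Igfbp6 at 1330 CPM in Schwann-like cells. Basal epithelial-like cells held both Igfbp2 (219 CPM) and Igfbp3 (239 CPM), from 43 and 47 UMIs in 17 cells. Igfbp1 had no UMI in any fibroblast gate or immune class read here.

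Against the mean of the other 3 gates, with the library as a block, most members differed, as did most genes. In the Dpp4 gate 7 of 8 members were called at an adjusted p under 0.05 (edgeR quasi-likelihood test, here and below), where 71.8% of all genes tested were called. Igfbp5 (log2 difference 2.97 ± 0.13 SE), Igfbp4 (1.37 ± 0.14), Igfbp6 (1.22 ± 0.08) and Igf1r (0.38 ± 0.06) were higher, and Igfbp2 (-3.02 ± 0.50), Igfbp7 (-2.91 ± 0.14) and Igf1 (-1.37 ± 0.11) were lower. Igfbp3 (-0.21 ± 0.31) was not called. The gates were cut from the same cells' counts, so these calls describe how regularly a difference recurred over 12 libraries.

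In the Fabp4 gate, whose markers include the adipocyte lipid carrier Fabp4 and the lipase Lpl, all 8 members were called, with 59.8% of genes. Only Igfbp7 was higher (0.63 ± 0.11). Igfbp2 (-3.76 ± 0.53), Igfbp3 (-3.04 ± 0.37) and Igfbp4 (-2.09 ± 0.17) were the furthest below the other gates. In the Tnc gate 7 members were called, with 60.2% of genes: Igfbp2 stood 7.59 ± 0.24 above the other gates on the log2 scale, Igf1 0.75 ± 0.10, Igfbp7 0.75 ± 0.11 and Igfbp4 0.50 ± 0.14, and Igfbp5 was lower at -1.93 ± 0.16. In the Gdf10 gate 4 members were called, with 50.5% of genes: Igfbp3 (3.58 ± 0.28), Igf1 (1.65 ± 0.10) and Igfbp7 (1.54 ± 0.10) were higher and Igfbp5 (-0.48 ± 0.14) was lower, a call lost with a gate margin of 0.5 (-0.34, adjusted p = 0.0737) and with gates from 2 genes each (-0.14, adjusted p = 0.364). The 2-gene gates also ended the calls of Igfbp6 in the Tnc gate (-0.11, adjusted p = 0.361) and Igf1r in the Fabp4 gate (-0.12, adjusted p = 0.0867). The Igf1r difference in the Tnc gate was small (-0.19 ± 0.07) and was lost without VCD_E2_P4 or without VCD_Low_E2_P4 (-0.15 to -0.12, adjusted p 0.0619 to 0.0721).

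Igfbp2 in the Tnc gate came from a minority of cells. A UMI of it was found in 473 of 3814 Tnc-gated cells (12.4%, median depth 12736.5 UMIs), against 0.28% of T cells (median depth 5609 UMIs). The 331 cells with at least 2 UMIs carried 98.5% of all Igfbp2 UMIs of the gate, and such cells occurred in all 12 libraries. Among them 68.3% had a UMI of Tnc, against 39.3% of the cells without Igfbp2, at median depths of 15445 and 12335 UMIs. The fibroblast matrix genes Col7a1 (169 against 21.4 CPM) and Mgp (4254 against 977 CPM), the gate marker Mfap4 (1299 against 251 CPM) and the histone gene Hist1h2ap (78.1 against 5.76 CPM) were higher in these cells than in cells of the gate without Igfbp2. The cells with at least 2 Igfbp2 UMIs were 6.92% to 20.4% of the gate in the libraries with E2 or E2_P4. In the other libraries they were 4.65% to 8.78%, so that the contrast also compares libraries with different treatments. These genes were picked by the difference itself, so the values are a description.

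The genes whose level over the 48 gate-by-library sums was most like that of a member followed the gates. By Pearson correlation of log2(CPM + 1) over 2718 genes, Igfbp2 was most like Tnc (r = 0.948), a marker of that gate, and Igfbp7 was most like the matrix proteoglycan Bgn (r = 0.968). Igfbp4 was most like fibronectin, Fn1 (r = 0.928), Igfbp5 like Pde8a (r = 0.946) and Dpt (r = 0.943), and Igfbp6 like Cd34 (r = 0.934). Igf1 was most like Fxyd6 (r = 0.913), Igfbp3 like Cdon (r = 0.891) and Igf1r like Tra2a (r = 0.793). The 48 sums share libraries and gates, so these values describe shared distribution over the gates.

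The main question of the layout is what E2, alone or with P4, changed in glands without ovarian hormones. The 6 libraries with E2 or E2_P4 were compared with the 3 without hormone, with PBDE level in the model. Igfbp3 in the Tnc gate had the largest fold change of any member above 1 CPM. Without hormone it stood at 303 CPM in VCD_Vehicle, 641 in VCD_Low_PBDE and 615 in VCD_High_PBDE. With E2 it was at 23.3 CPM in VCD_E2, 23.1 in VCD_Low_E2 and 15.9 in VCD_High_PBDE_E2, and with E2_P4 at 35.2, 23.7 and 11.2 CPM in VCD_E2_P4, VCD_Low_E2_P4 and VCD_High_PBDE_E2_P4. Every hormone-treated library was thus far below every library without hormone. The log2 fold change was -4.64 ± 0.30 SE, 24.9-fold lower, with adjusted p = 3.81e-06. The share of Tnc-gated cells with an Igfbp3 UMI, after each cell was thinned to 5000 UMIs, was 32.7% to 50.2% without hormone and 4.4% to 7.98% with hormone. Before thinning it was 38.0% to 57.0% and 10.8% to 23.5%. The share in T cells, which should lack this gene, was 1.85% after thinning and 2.76% before.

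In the other gates Igfbp3 moved less. In the Fabp4 gate it was at 20.5, 44.2 and 66.7 CPM without hormone and 14.8 to 23.3 CPM with hormone, and fell by 1.19 ± 0.26 on the log2 scale (adjusted p = 0.0184). VCD_Vehicle lay inside the hormone range, and the call was lost without VCD_High_PBDE, VCD_Low_PBDE or VCD_Low_E2_P4 (-1.16 to -0.79, adjusted p 0.0527 to 0.0933). In the Gdf10 gate, where Igfbp3 is most abundant, it ranged from 598 to 1255 CPM without hormone and from 437 to 1042 CPM with hormone (-0.35 ± 0.15, adjusted p = 0.221), and in the Dpp4 gate the change was -0.06 ± 0.15 (adjusted p = 0.837).

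Within the Tnc gate 5 of 8 members were called, 4 lower and 1 higher, where 33% of all genes tested in that gate were called. Besides Igfbp3, Igf1r fell by 0.77 ± 0.15 on the log2 scale (adjusted p = 0.00262): it was at 88.3, 85.4 and 90.7 CPM without hormone, 51.6, 80.4 and 80.9 with E2, and 29.4, 42.5 and 62.3 with E2_P4 (PBDE none, low, high). Igfbp2 fell by 1.03 ± 0.22 (adjusted p = 0.00499), from 191 to 278 CPM without hormone to 90.2 to 175 with hormone, and the call was lost without VCD_Low_PBDE (-0.79, adjusted p = 0.0521). The hormone groups of the layout did not overlap for these genes. Outside the layout, Igf1r in VCD_Vehicle_NormEnv was at 73.7 CPM, inside the hormone range. The Igfbp2 call was also lost with VCD_Vehicle_NormEnv (61.6 CPM) added to the libraries without hormone (-0.72, adjusted p = 0.101). The share of Tnc-gated cells with an Igfbp2 UMI was not lower with hormone, at 7.56% to 10.4% without and 11.2% to 26.5% with it, and at 7.79% to 9.47% and 8.18% to 18.7% after thinning to 5000 UMIs. With E2 alone 2 of 8 members were called in this gate, Igfbp3 (-4.73) and Igfbp2 (-1.02), where 16% of all genes were, and Igf1r was at -0.42 (adjusted p = 0.123).

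Igfbp4 rose by 0.75 ± 0.16 in the Tnc gate (adjusted p = 0.00419), from 637 to 779 CPM without hormone to 850 to 1685 CPM with hormone. Igfbp5 fell by 1.07 ± 0.24 (adjusted p = 0.00722), with overlapping ranges of 406 to 737 and 163 to 472 CPM. The Igfbp5 call was lost without VCD_High_PBDE or without VCD_Vehicle (-0.83 to -0.78, adjusted p 0.0597 to 0.0715). Igf1 (-0.34 ± 0.12, adjusted p = 0.0585), Igfbp6 (-0.11 ± 0.12) and Igfbp7 (-0.16 ± 0.08) were not called. The median log2 change over the 8 members was -0.55 in this gate and that over all genes tested was -0.01.

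The makeup of the Tnc gate moved with hormone as well. Its cells had median depths of 8424 to 10311 UMIs in the libraries without hormone and 16667 to 27265 with hormone, Col1a1 (type I collagen) was at 3021 to 3396 and 8702 to 19606 CPM, and 7 stress-response genes such as Fos and Hspa1a summed to 16909 to 23185 and 7231 to 12523 CPM. Marker sums of other cell types moved too, each over a list of 6 genes. The pericyte list was at 49.5 to 54.4 CPM without hormone and 13.6 to 22.1 CPM with it, of which Abcc9 was 33.4 to 39.6 and 5.84 to 14.4 CPM, with 2 to 3 genes at 0 and Rgs5 at no more than 0.664 CPM. The endothelial list was at 7.02 to 8.44 and 2.17 to 4.41 CPM, of which Kdr was 6.63 to 8.25 and 0.834 to 3.64 CPM, with Cdh5 at 0.42 CPM at most. The dendritic list was at 4.29 to 8.25 and 13.4 to 28.5 CPM, nearly all Zbtb46, with Xcr1 at 0 in these 9 libraries. The macrophage list was at 2.19 to 4.68 and 5.15 to 9.94 CPM and the Schwann list at 17.4 to 20.7 and 8.49 to 13.8 CPM. Adipocyte markers summed to at most 0.448 CPM. The part of depth, of the stress genes and of these markers in the member changes was not tested.

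The gate was also split by detection of a Tnc UMI, a step added after the first results were seen. A Tnc UMI was found in 42.6% of Tnc-gated cells, 0.663% of T cells (median depth 5609 UMIs) and 0.714% of macrophages (median depth 11578 UMIs). Detection depends on depth, which was higher with hormone, so that the split does not divide both groups in the same way. In cells with a Tnc UMI, Igfbp3 was at 309 to 601 CPM without hormone and 6.25 to 25.9 CPM with hormone (-4.70, adjusted p = 9.29e-08), and in cells without one it was at 299 to 673 and 11.9 to 62.8 CPM. In cells with a Tnc UMI, Igfbp2 fell from 429 to 790 CPM to 93.3 to 363 CPM (-1.82, adjusted p = 0.000147), and Igf1r fell by 0.92 (adjusted p = 0.00288). In cells without one, Igfbp2 was at 10.1 to 80.8 CPM without hormone and 34.2 to 163 CPM with it. In the cells with a Tnc UMI, Igfbp6 (-0.56, adjusted p = 0.0147) and Igfbp7 (-0.38, adjusted p = 0.00568) were also called lower.

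Igfbp4 and Igfbp5 were not called in the cells with a Tnc UMI. There, Igfbp4 was at 996 to 1132 CPM without hormone and 820 to 1763 CPM with it (0.14, adjusted p = 0.447), and Igfbp5 at 143 to 614 and 149 to 408 CPM (-0.26, adjusted p = 0.587). In the cells without a Tnc UMI, Igfbp4 was at 377 to 589 CPM against 888 to 1603 CPM and Igfbp5 at 615 to 901 CPM against 188 to 611 CPM, neither with overlap. The difference between both kinds of cell was not tested. With gates set by only 2 genes each (Tnc and Mfap4 for this gate), the hormone change of Igfbp4 was 0.03 (adjusted p = 0.942) and that of Igfbp5 was 0.00482 (adjusted p = 0.994), while that of Igfbp3 was -2.18 with its call kept.

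**Figure D2:**
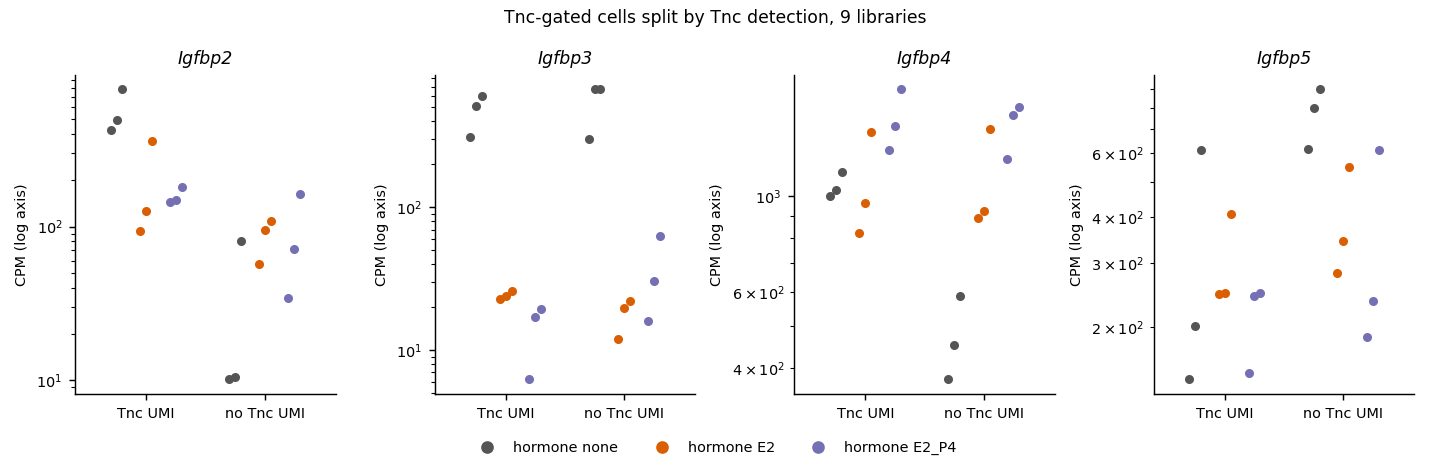
Igfbp2, Igfbp3, Igfbp4 and Igfbp5 in Tnc-gated cells with and without a Tnc UMI, in CPM on a logarithmic axis, with 1 point for each of the 9 libraries and colour for the hormone level. Igfbp3 is lower with hormone in both kinds of cell, while Igfbp4 differs in the cells without a Tnc UMI.

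In the Dpp4 gate 4 of 8 members were called, 2 in each direction, where 10.7% of all genes were. Igfbp7 rose in steps that did not overlap: 202, 189 and 148 CPM without hormone, 316, 324 and 237 CPM with E2, and 512, 556 and 435 CPM with E2_P4 (PBDE none, low, high). Its hormone change was 1.08 ± 0.06 (adjusted p = 0.0015). Igf1 rose by 0.73 ± 0.14 (adjusted p = 0.0192), from 53.6, 51.7 and 64.2 CPM without hormone to between 78.5 and 118 CPM with hormone, without overlap in the layout. VCD_Vehicle_NormEnv, a vehicle library outside the layout, was at 81.1 CPM and Intact at 84.6 CPM, both inside the hormone range. With VCD_Vehicle_NormEnv added the change was 0.63 (adjusted p = 0.0223). This call was lost without VCD_Low_PBDE or VCD_Vehicle (0.61 to 0.70, adjusted p 0.0659 to 0.115).

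Igfbp5, the most Dpp4-enriched member, fell by 0.64 ± 0.10 in the Dpp4 gate (adjusted p = 0.0107). In the layout it was at 5795 to 6814 CPM without hormone and 3728 to 5196 CPM with hormone. Outside the layout, VCD_Vehicle_NormEnv was at 4696 CPM, inside the hormone range, and Intact at 5235 CPM. The Igfbp5 call was lost without VCD_Low_PBDE (-0.57, adjusted p = 0.0718). Igfbp2 was called lower (-3.38 ± 0.80, adjusted p = 0.0364) at levels near 0, since VCD_Vehicle had 61 UMIs of it (4.76 CPM) and no other library of the layout exceeded 0.66 CPM. That call was lost when any 1 of these was left out: VCD_E2, VCD_E2_P4, VCD_High_PBDE, VCD_High_PBDE_E2_P4 or VCD_Low_E2 (-4.01 to -2.63, adjusted p 0.0682 to 0.0936). Only 7 runs with 1 library left out gave Igfbp2 a value in this gate, and 2 of these kept the call. In the remaining runs it was not tested. Igf1r (-0.16 ± 0.07), Igfbp3, Igfbp4 (-0.08 ± 0.10) and Igfbp6 (0.01 ± 0.09) were not called for the mean of both hormone levels. With E2 alone 3 of 8 members were called, where 5.09% of all genes were: Igfbp7 (0.64 ± 0.07), Igfbp5 (-0.61 ± 0.12) and Igfbp4. Igf1 (0.66, adjusted p = 0.0553) and Igfbp2 (-4.28, adjusted p = 0.0667) then missed the threshold. Igfbp4 was lower with E2, at 821, 1005 and 1039 CPM against 1205, 1187 and 1676 CPM without hormone (-0.55 ± 0.12, adjusted p = 0.0409), and stood at 1502 to 1948 CPM with E2_P4.

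In the Fabp4 gate 5 of the 7 members tested were called, where 12.1% of all genes were, and Igfbp2 was too low to test. Igfbp4, the lowest of the gates at baseline, rose with hormone: 138, 113 and 128 CPM without, 183, 278 and 321 CPM with E2, and 530, 527 and 660 CPM with E2_P4. The 3 hormone levels did not overlap, and the change was 1.54 ± 0.15 (adjusted p = 0.000532). The Igfbp6 change was 0.38 ± 0.09 (adjusted p = 0.0299), Igf1r -0.31 ± 0.07 (adjusted p = 0.019) and Igfbp7 -0.27 ± 0.07 (adjusted p = 0.0442), all with overlapping ranges.

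With E2 alone 1 of 7 members was called in this gate, Igfbp4 (0.98 ± 0.16), where 2.05% of all genes were. The Igf1r change was then -0.04 (adjusted p = 0.82) and that of Igfbp6 0.18 (adjusted p = 0.425), while Igfbp3 (-1.07, adjusted p = 0.112) and Igfbp7 (-0.32, adjusted p = 0.101) missed the threshold at sizes near those for both hormone levels. The calls of the 3 smaller changes each depended on single libraries, while their sizes stayed near the full values. The Igf1r call was lost without VCD_E2, VCD_High_PBDE, VCD_Low_E2, VCD_Low_PBDE or VCD_Vehicle (-0.33 to -0.29, adjusted p 0.0527 to 0.0784). The Igfbp6 call was lost without VCD_E2_P4, VCD_High_PBDE, VCD_High_PBDE_E2_P4, VCD_Low_E2 or VCD_Low_PBDE (0.30 to 0.40, adjusted p 0.0566 to 0.144). That of Igfbp7 was lost without any layout library but VCD_High_PBDE_E2 (-0.31 to -0.24, adjusted p 0.0601 to 0.194). The stress genes summed to 19464 to 27295 CPM without hormone and 11734 to 17893 CPM with hormone in this gate. The pericyte list was at 48.5 to 57.8 and 23.3 to 44.8 CPM (1 to 3 of 6 genes at 0) and the adipocyte list of 4 genes at 0 to 0.073 and 0.117 to 1.04 CPM. Their part was not tested.

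In the Gdf10 gate, with the highest Igf1, no member of 7 tested was called by edgeR, where 4.12% of all genes were. At an unadjusted p under 0.05 there were 4 (Igfbp3, Igfbp5, Igfbp6 and Igf1r), with 2259 of 11350 genes. DESeq2 called 1, Igfbp6 (0.52 ± 0.15 and adjusted p = 0.0881 by edgeR), with 277 of 11350 genes. With E2 alone 0 members were called by edgeR, where 0.978% of all genes were. An unadjusted p under 0.05 was found for 3 (Igfbp3, Igfbp5 and Igfbp6) and for 1779 of 11350 genes. Igf1 itself was at 339 to 438 CPM without hormone and 330 to 414 CPM with hormone (-0.02 ± 0.09). In macrophages no member of 6 was called, 0 were at an unadjusted p under 0.05 and DESeq2 called 0. There edgeR called 0% of 9082 genes, with 869 at an unadjusted p under 0.05, and DESeq2 called 55. Macrophage Igf1 was at 209 to 306 CPM without hormone and 165 to 330 CPM with hormone (-0.19 ± 0.17).

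**Figure D3:**
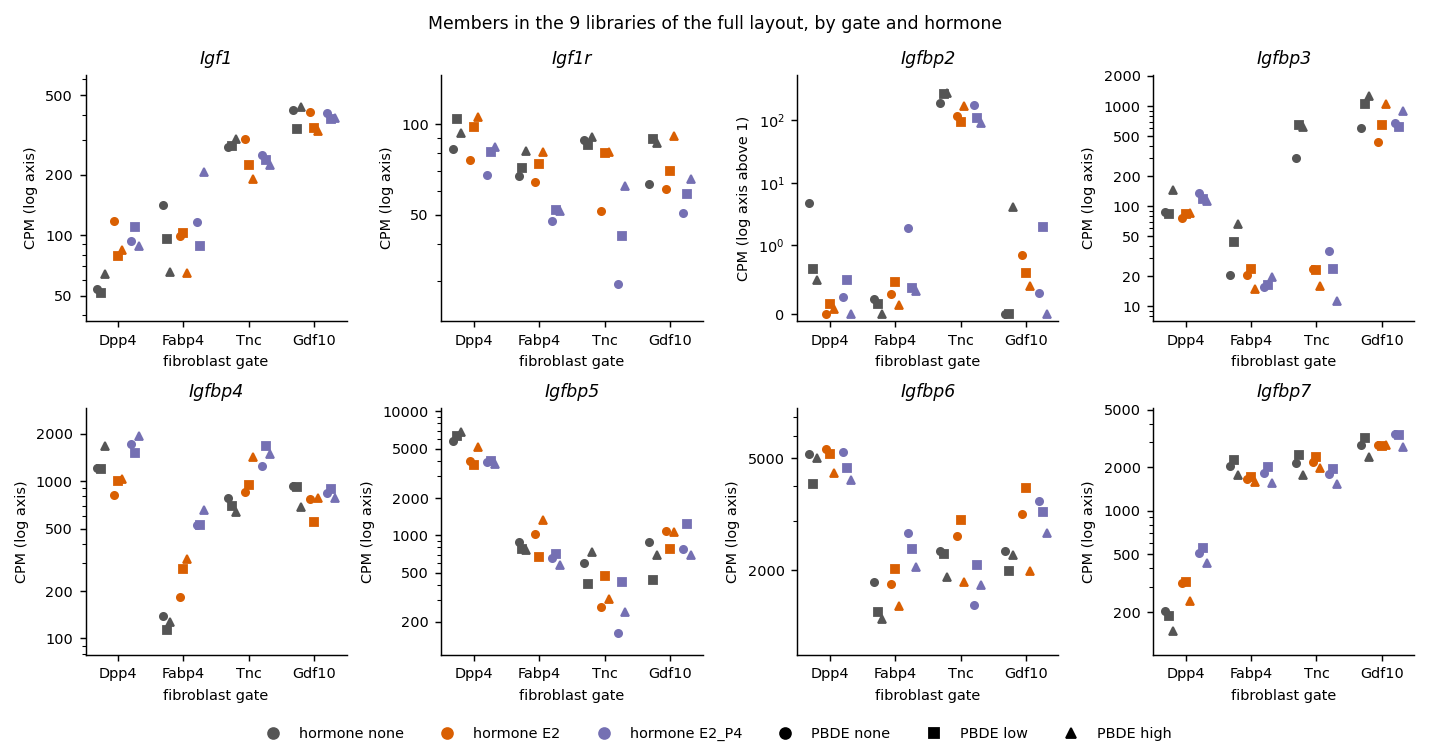
The 8 members in CPM (logarithmic axis, for Igfbp2 linear below 1) in each fibroblast gate, with 1 point for each of the 9 libraries, colour for hormone and shape for PBDE level. Igfbp3 in the Tnc gate drops from 303 to 641 CPM to 11.2 to 35.2 CPM with hormone, and Igfbp4 in the Fabp4 gate and Igfbp7 in the Dpp4 gate climb from none to E2 to E2_P4.

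Whether the hormone response differed between gates was tested in 1 model over the 36 sums of 4 gates in 9 libraries. It differed for 6 of 8 members, where 26.6% of all genes did: Igfbp3 (adjusted p = 8.56e-09), Igfbp4 (4.97e-05), Igfbp7 (0.000142), Igfbp5 (0.00262), Igf1 (0.0203) and Igf1r (0.0415, all adjusted p). Igfbp6 (adjusted p = 0.0636) and Igfbp2 (0.0669) did not pass. With the Tnc gate limited to cells with a Tnc UMI, Igfbp5 no longer passed (adjusted p = 0.0927) and Igfbp6 did (0.00783).

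The contrast of E2_P4 with E2 asks what P4 added. Igfbp7 was the 1 member of 8 called in the Dpp4 gate, higher by 0.87 ± 0.07 on the log2 scale (adjusted p = 0.0229), where 0.0234% of genes were called, 3 in all. Igfbp4 in that gate was at 821, 1005 and 1039 CPM with E2 and 1723, 1502 and 1948 CPM with E2_P4 (0.93 ± 0.12, adjusted p = 0.0622), and Igfbp3 at 75.9 to 84.7 and 113 to 136 CPM (0.68 ± 0.18, adjusted p = 0.316). Neither pair of ranges overlapped, and DESeq2 called both along with Igfbp7, where it called 113 of 12323 genes. In the Fabp4 gate 2 of 7 members were called, where 0.776% of genes were: Igfbp4 rose by 1.12 ± 0.16 (adjusted p = 0.0237) and Igf1r fell by 0.54 ± 0.08 (adjusted p = 0.0285), from 64.1, 73.5 and 80.7 CPM to 47.8, 51.9 and 51.5 CPM. Igfbp6 was at 1493 to 2023 CPM with E2 and 2059 to 2720 CPM with E2_P4 (adjusted p = 0.0971), and DESeq2 called it and Igfbp5 besides. Over all genes of this gate DESeq2 called 272 of 11049.

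In the Tnc gate no member was called, where 2.93% of genes were. At an unadjusted p under 0.05 were 4 (Igfbp4, Igfbp6, Igfbp7 and Igf1r), with 2045 of 11725 genes. DESeq2 called 1 (Igf1r, -0.71 ± 0.17 and adjusted p = 0.0578 by edgeR), with 313 of 11270 genes. In the Gdf10 gate neither tool called a member, edgeR called 0% of genes (929 at an unadjusted p under 0.05, 32 called by DESeq2), and only Igf1r had an unadjusted p under 0.05. The stress genes separated both hormone levels in every gate, for example at 8455 to 9126 CPM with E2 and 6934 to 7789 CPM with E2_P4 in the Dpp4 gate, and at 15022 to 17893 and 11734 to 12327 CPM in the Fabp4 gate. The mitochondrial share of the Dpp4 gate was 2.08% to 2.55% and 1.95% to 2.01%, and in the Fabp4 gate the pericyte list was at 35.5 to 44.8 and 23.3 to 34.2 CPM, the luminal list at 8.55 to 16.7 and 4.65 to 7.61 CPM and the dendritic list at 11.8 to 15.4 and 17.0 to 19.1 CPM. The B cell list was at 961 to 1064 and 886 to 921 CPM in the Dpp4 gate and at 856 to 898 and 705 to 751 CPM in the Fabp4 gate. Of its 6 genes, 1 to 2 were at 0 in the Dpp4 gate and 0 to 3 in the Fabp4 gate. The T cell list was at 0.628 to 1.57 CPM in the Dpp4 gate. The B cell sum is not divided by gene here and is not read as a measure of B cells. The part of the stress genes, the mitochondrial share and these lists in the member changes was not tested. Across the gates the direction was regular for Igf1r and Igfbp4. At equal PBDE level, E2_P4 was below E2 for Igf1r in 3 of 3 pairs in each of the 4 gates. For Igfbp4, E2_P4 was above E2 in 3 of 3 pairs in each. Both members are named for this pattern, and its share over all genes was not counted. The gates of a library are not independent. All 3 called P4 changes were lost when 1 of VCD_E2, VCD_E2_P4, VCD_High_PBDE_E2_P4, VCD_Low_E2 or VCD_Low_E2_P4 was left out, with log2 changes of 0.82 to 0.90 for Igfbp7 (adjusted p 0.0507 to 0.193), 0.91 to 1.27 for Igfbp4 (adjusted p 0.0516 to 0.138) and -0.57 to -0.49 for Igf1r (adjusted p 0.0646 to 0.138).

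In macrophages edgeR and DESeq2 called no member for E2_P4 against E2, where 0.033% of genes were called by edgeR. Igfbp5 (1.47 ± 0.54, adjusted p = 0.866 by edgeR) and Igfbp6 (1.74 ± 0.70, the same adjusted p) passed only the unadjusted threshold, which 504 of 9082 genes passed. Both were highest in VCD_Low_E2_P4, at 237 and 465 CPM, and Col1a1, a fibroblast gene, was at 979 CPM in the macrophages of that library and between 23.7 and 109 CPM in the other 11. The part of fibroblast RNA in these values was not tested.

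**Figure D4:**
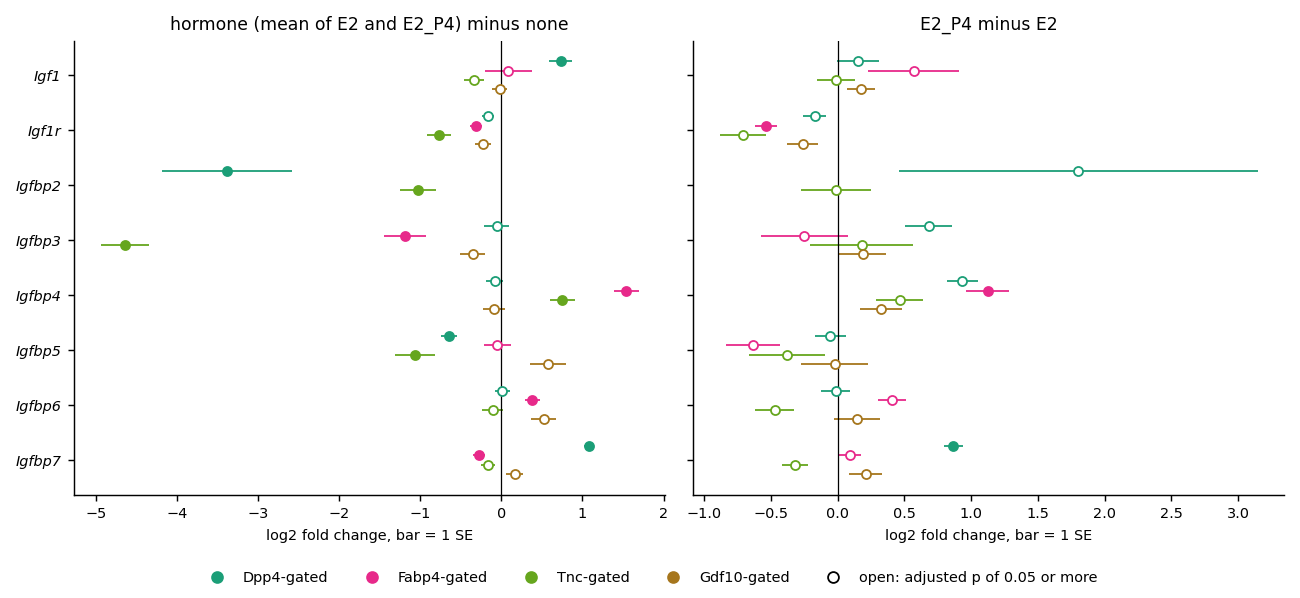
Log2 fold change of each member in the 4 fibroblast gates for hormone against none (left) and E2_P4 against E2 (right), with bars of 1 SE and filled points where the adjusted p was under 0.05. Igfbp3 in the Tnc gate is at -4.64 in the left panel, and Igfbp4 and Igfbp7 lie to the right of 0 where they were called in the right panel.

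No member was called by edgeR for either PBDE dose. For the low dose 0 members were called in any gate, against 0% of genes in the Dpp4, Tnc and Gdf10 gates and 0.00817% in the Fabp4 gate. Over all genes of the first 3 gates, 607, 330 and 423 had an unadjusted p under 0.05, and DESeq2 called 4, 0 and 7. At an unadjusted p under 0.05 were Igf1r in the Dpp4 gate (0.33 ± 0.09) and Igf1r (0.30 ± 0.11) and Igfbp3 (0.39 ± 0.18) in the Gdf10 gate, and DESeq2 called 0 members. For the high dose 0 members were called either, against 0.14% of genes in the Dpp4 gate, 0.253% in the Fabp4 gate, 0.0426% in the Tnc gate and 0.211% in the Gdf10 gate. At an unadjusted p under 0.05 were 4 of 8, 2 of 7, 2 of 8 and 3 of 7 members in these gates. Over all genes, 2382 of 12821, 1904 of 12235, 1594 of 11725 and 1702 of 11350 were.

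DESeq2 called 3 member changes with the high dose. Over all genes it called 122 higher and 176 lower in the Dpp4 gate and 43 and 142 in the Fabp4 gate. The same counts were 25 and 45 in the Tnc gate and 38 and 59 in the Gdf10 gate. Igfbp3 in the Gdf10 gate was at 598, 437 and 670 CPM without PBDEs and 1255, 1042 and 897 CPM at the high dose (hormone none, E2, E2_P4), with a change of 0.87 ± 0.18 and adjusted p = 0.0757 by edgeR. Within the layout every high-dose library was above every library without PBDEs, while Intact and VCD_E2_ICI, also without PBDEs, were at 1095 and 1733 CPM. The high-dose libraries shared no barcode block with the layout libraries without PBDEs, so that dose and block cannot be told apart. Igfbp7 in the Dpp4 gate (-0.38 ± 0.07, adjusted p = 0.0821 by edgeR) and Igfbp6 in the Fabp4 gate (-0.45 ± 0.11, adjusted p = 0.11) were the other changes. Igf1r had a positive change with either dose in all 4 gates, from 0.12 to 0.52 on the log2 scale, with no call.

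The remaining libraries allow comparisons of 1 library with 1 other, with no replicate and no test. Values carry exact Poisson intervals at the 95% level, which cover counting error only, and a change is counted where it passed 2-fold at 50 CPM or more in either library. In VCD_E2_ICI, Igfbp3 was higher than in VCD_E2 in every gate: 369 CPM (357 to 381) against 75.9 (71.7 to 80.2) in the Dpp4 gate, 108 against 20.6 in the Fabp4 gate, 429 (407 to 452) against 23.3 (18.6 to 28.8) in the Tnc gate and 1733 against 437 in the Gdf10 gate. In the Dpp4, Fabp4 and Gdf10 gates this was the highest Igfbp3 of all 12 libraries. The only other member past 2-fold was Igfbp4 in the Dpp4 gate, at 2027 CPM against 821. Members past 2-fold were thus 2, 1, 1 and 1 in the Dpp4, Fabp4, Tnc and Gdf10 gates, where 3.84%, 1.18%, 4.43% and 2.15% of genes were. Igfbp7 in the Dpp4 gate was at 254 CPM in VCD_E2_ICI and 316 in VCD_E2, and Igfbp4 in the Fabp4 gate at 157 and 183 CPM. Igf1 was at 116 and 118 CPM in the Dpp4 gate. In the Tnc gate VCD_E2_ICI and VCD_E2 also differed in median depth (11490.5 and 17300 UMIs), stress genes (17877 and 11911 CPM) and the pericyte list (57.2 and 17.0 CPM). The stress genes were at 10627 and 9087 CPM in the Dpp4 gate. The part of these differences in the member values was not tested.

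Between Intact and VCD_Vehicle the only member past 2-fold at 50 CPM or more was Igfbp3 in the Tnc gate, at 88.8 CPM in Intact and 303 in VCD_Vehicle. In that gate 1.83% of genes passed 2-fold, with 0.283%, 0.663% and 0.408% in the Dpp4, Fabp4 and Gdf10 gates. The Intact level lies between the libraries without hormone and those with it. In the other gates Igfbp3 was higher in Intact than in VCD_Vehicle, at 1095 and 598 CPM in the Gdf10 gate and 136 and 87.8 CPM in the Dpp4 gate. In the Fabp4 gate it was at 45.5 and 20.5 CPM, past 2-fold but under the 50 CPM limit. Between VCD_Vehicle_NormEnv and VCD_Vehicle, only Igfbp2 in the Tnc gate passed 2-fold (61.6 against 191 CPM), and it was the lowest of the 12 libraries. The share of all genes past 2-fold is not given for this pair, so the count is a description only.

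**Figure D5:**
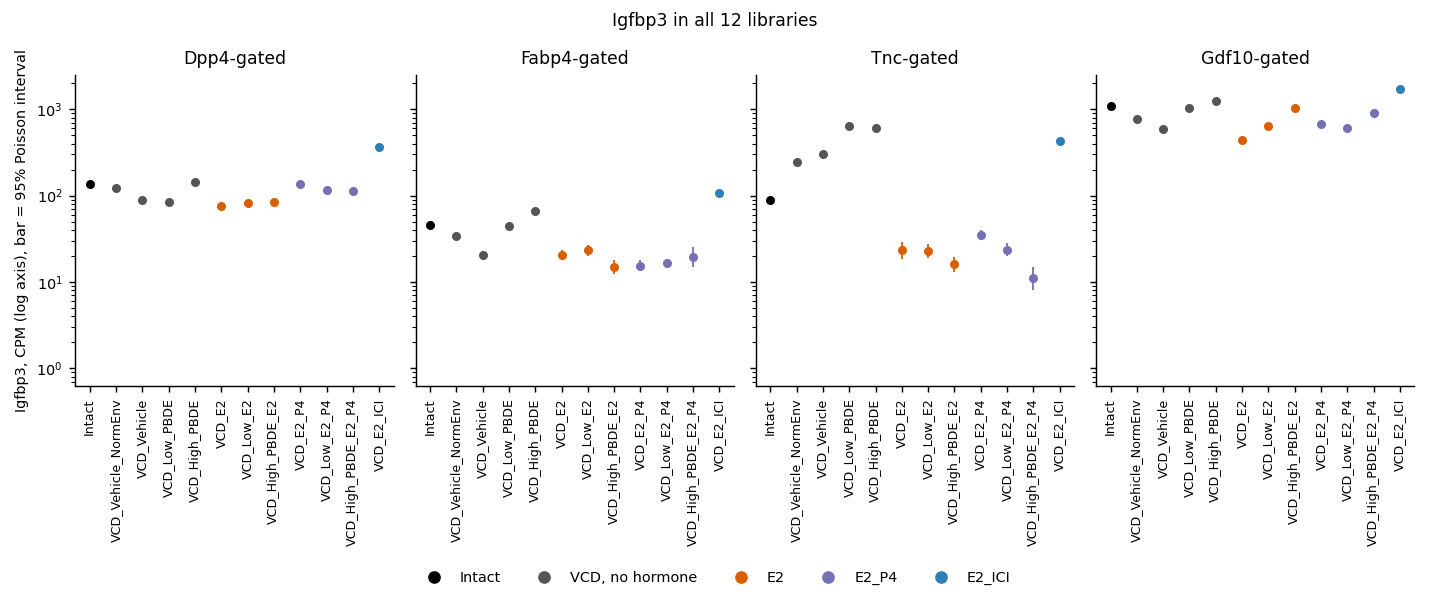
Igfbp3 in all 12 libraries and 4 fibroblast gates, in CPM on a logarithmic axis, with exact 95% Poisson intervals (often smaller than the point). In the Tnc gate the 6 libraries with E2 or E2_P4 lie at or below 35.2 CPM, and Intact, the vehicle and PBDE libraries and VCD_E2_ICI lie at 88.8 CPM or above.

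Other genes of the IGF pathway were read from a list of 30: further ligands and receptors, proteases, signalling adaptors and the growth hormone branch. In the Tnc gate 8 of 25 tested were called with hormone, a share near the 33% of all genes called there, and 7 of them are given here. Socs2, a feedback inhibitor of growth hormone signalling, rose by 1.70 ± 0.16 (adjusted p = 3.42e-05), and Cilp, a matrix protein that binds IGF1, by 1.49 ± 0.52 (adjusted p = 0.0468). The transcription factor Foxo1, which IGF signalling restrains, fell by 1.01 ± 0.11 (adjusted p = 9.11e-05), and the kinase subunit Pik3r1 by 0.74 ± 0.09, the adaptor Irs2 by 0.54 ± 0.10, the growth hormone receptor Ghr by 0.52 ± 0.09 and the insulin receptor Insr by 0.48 ± 0.13. The median change over the list was -0.20, against -0.01 over all genes. Pappa2 had a value of -1.69 ± 0.75 without a call (adjusted p = 0.109).

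In the Dpp4 gate 4 of 23 were called, with 10.7% of all genes: Stc2, an inhibitor of PAPPA proteases, at -1.21 ± 0.18, Irs2 at -0.64 ± 0.11, Shc1 at 0.39 ± 0.07 and Jak2 at 0.27 ± 0.06. In the Fabp4 gate 3 of 25 were called, a share near the 12.1% of all genes, with Socs2 at 0.94 ± 0.20, Stat5b at -0.38 ± 0.09 and Pik3r1 at -0.31 ± 0.08. In the Gdf10 gate, where 4.12% of all genes were called, 4 of 25 were, with Irs2 at -0.61 ± 0.14, Jak2 at 0.59 ± 0.13, Ghr at 0.48 ± 0.09 and Grb10 at 0.37 ± 0.09. Ghr thus fell in the Tnc gate and rose in the Gdf10 gate, and its response differed between the gates (adjusted p = 0.00305), as did that of 8 of 28 pathway genes, a share near the 26.6% over all genes. In macrophages 0 of 18 were called by edgeR, which called 0% of all genes there. An unadjusted p under 0.05 was found for 2 (Pik3ca and Cilp) and for 869 of 9082 genes. With P4, Irs1 (-0.54 ± 0.12) and Irs2 (-0.64 ± 0.11) were called among 25 tested in the Tnc gate, where 2.93% of all genes were. None of the list was called in the other gates. With the high PBDE dose, Jak2 in the Dpp4 gate (-0.56 ± 0.07, adjusted p = 0.0446) was the only call. In that gate 23 of the list were tested, and 0.14% of all genes were called.

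Between gates, 23, 21 and 17 of 28 pathway genes tested were called in the Dpp4, Tnc and Gdf10 gates, where 71.8%, 60.2% and 50.5% of all genes were. Pappa, the protease that cleaves IGFBP4, stood 2.77 ± 0.18 above the other gates on the log2 scale in the Tnc gate and 5.40 ± 0.27 below them in the Dpp4 gate. Igfbp4 was highest in the Dpp4 gate and was also called higher in the Tnc gate (0.50 ± 0.14). Ghr was higher in the Gdf10 gate (1.25 ± 0.09), the gate with the most Igf1. It was lower in the Tnc gate (-0.82 ± 0.10), where Igf1 was called higher as well (0.75 ± 0.10). No relation between these genes was tested. Igf2 was at 0.25 to 1.45 CPM pooled over each of the 4 gates and Igfbp1 at 0 UMIs.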

How the data were processed

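Single cells from mouse mammary glands were profiled with 10x Chromium v3 chemistry. The authors aligned the reads to mm10 with Cell Ranger 3.1.0 and deposited unnormalised UMI counts per gene and cell for each of 12 libraries. The gene annotation release is not given in the sources used here.

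Cells were kept from 500 detected genes and 1000 UMIs upward, with a mitochondrial share of no more than 5%. Fibroblasts had a UMI of Pdgfra or Col1a1, fewer than 3 markers of any other class and none of the epithelial, immune or vascular genes Cspg4, Pecam1, Cd52, Ptprc, Krt14 and Epcam. Other classes needed at least 3 of their markers, a lead of 2 over the next class and no Pdgfra, and the remaining cells were left unassigned. No doublet caller was run. Fibroblasts were gated by the mean standardised log level of 7 markers per gate, with a lowest score of 0.25 and a margin of 0.25 over the next gate. The members, markers and gene lists were chosen with earlier results of these data known. Named genes were the 8 members, the genes of the pathway list called for hormone or among its 3 largest changes, and up to 3 genes most like each member. Other genes named were chosen after their values were seen. The values of 1 gene of the pathway list are not reported here. Counts were summed per library and gate, since cells are not replicates, and each library is 1 replicate of its group. P-values measure the spread between libraries around an additive model of hormone and PBDE, and the number of animals behind a library is not given in the labels. The sums were tested with the edgeR quasi-likelihood test (edgeR 4.0.16, R 4.3.3) with TMM factors and a low-count filter, with Benjamini-Hochberg adjustment over all genes tested. Gates were compared over 48 sums with the library as a block. DESeq2 1.42.0 was an alternative.

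Levels are CPM, a gene's share of the summed UMIs scaled to 1e6. They are not corrected for length, and no level is compared between genes. Intervals at the 95% level are exact Poisson intervals and cover counting error only. For shares of cells, each cell was thinned to 5000 UMIs and shallower cells were left out, 309 of 3814 Tnc-gated cells and 729 of 1811 T cells. Tested on simulated counts with 200 genes changed by a log2 fold of 1, the hormone contrast recovered 84.5% of them in the Dpp4 gate (12468 genes), 88.5% in the Fabp4 gate (11711), 80.5% in the Tnc gate (11149), 78% in the Gdf10 gate (10842) and 65% in macrophages (8511). The simulated counts had the same assumed spread for every gene and gate, equal changes with E2 and E2_P4, no PBDE effect and no genes of low count. The percentages depend on that setting and do not give the power of the tests on the real counts. The removal of cells with shared barcodes and the limit to Tnc-gated cells with a Tnc UMI were added after seeing the data.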

Additional observations from a re-analysis of the deposited data

Results flagged for a closer look

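The hormone response differed among the 4 fibroblast gates for 6 of the 8 members, by the edgeR test of the difference itself over 36 sums. Of all genes tested, 26.6% differed. For Igfbp3 (adjusted p = 8.56e-09) the log2 change was -0.06 in the Dpp4 gate, -1.19 in the Fabp4 gate, -4.64 in the Tnc gate and -0.35 in the Gdf10 gate. For Igfbp4 (adjusted p = 4.97e-05) it was -0.08, 1.54, 0.75 and -0.09 in the same order. For Igfbp7 (adjusted p = 0.000142) it was 1.08, -0.27, -0.16 and 0.16, so that the Dpp4 gate, with the lowest Igfbp7, had the only positive call. For Igfbp5 (adjusted p = 0.00262) it was -0.64, -0.05, -1.07 and 0.58. For Igf1 (adjusted p = 0.0203) it was 0.73, 0.09, -0.34 and -0.02. For Igf1r (adjusted p = 0.0415) it was -0.16, -0.31, -0.77 and -0.23, negative in each gate. With the Tnc gate limited to cells with a Tnc UMI, Igfbp5 no longer passed (adjusted p = 0.0927) and Igfbp6 did (adjusted p = 0.00783). The gates of a library share its cells' preparation and sequencing.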

How the results depend on the processing

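With 1 library per group, the tests lean on 9 libraries and an additive model, and Intact, VCD_E2_ICI and VCD_Vehicle_NormEnv have no replicate. Replicate numbers pair no libraries, because the labels give each group only replicate number 1. Gates were matched within a library by the library block, and the hormone model held the PBDE level. Over the 43 member results that were called, 814 of 890 recomputed values kept their direction and side of the threshold, 75 lost their call and 1 lost it with a change of sign, at a value near 0. These counts pool the differences between gates with the treatment changes, and most of the lost calls were of treatment changes. Each called P4 change, for example, kept its call in 4 of 9 runs with 1 library left out. Igfbp3 in the Tnc gate (-5.18 to -2.18, highest adjusted p 0.0124), Igfbp4 in the Fabp4 gate (0.98 to 1.76, highest 0.0173) and Igfbp7 in the Dpp4 gate (0.64 to 1.18, highest 0.0166) kept their hormone call in every alternative run.

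With gates from 2 genes each, the hormone change of Igfbp5 in the Tnc gate vanished, at 0.00482 with adjusted p = 0.994, called members fell from 5 to 3 in the Tnc gate, and the Gdf10 gate went from 0 to 1. For E2 alone, 3 members were called in the Dpp4 gate (4 over both hormone levels), Igfbp4 among them, 1 in the Fabp4 gate (5) and 2 in the Tnc gate (5). Calls over all genes fell as well, to 653, 251 and 1880 from 1377, 1483 and 3866. A gate margin of 0.5 left 3 in the Fabp4 gate, DESeq2 called 1 in the Gdf10 gate and no low-count filter gave 2 there. With 1 library left out, hormone calls ranged from 1 to 4 in the Dpp4 gate, 1 to 5 in the Fabp4 gate and 0 to 1 in the Gdf10 gate. For E2_P4 against E2, the Dpp4 gate (1 call) had 3 by DESeq2, 2 with no filter, 2 with no negative selection and 0 to 1 with 1 library left out. The Fabp4 gate (2 calls) had 4 by DESeq2, 4 with no filter, 1 with 2-gene gates and 0 to 2 with 1 library left out. The Tnc gate (0 calls) had 1 by DESeq2, with either other margin (0 or 0.5) and with no negative selection, 3 with no filter and 0 to 2 with 1 library left out, and macrophages (0 calls) had 3 with no filter. For high PBDE (0 calls), DESeq2 gave 1 in each of the Dpp4, Fabp4 and Gdf10 gates, no filter gave 1 in the Fabp4 and Gdf10 gates, and leaving out 1 library gave 0 to 1 in the Gdf10 gate. Calls over all genes for E2_P4 against E2 were 113, 272 and 313 by DESeq2 in the Dpp4, Fabp4 and Tnc gates. By edgeR they were 3, 95 and 343. For the other filters, margins, gates and left-out libraries they are not given here, so those member counts have no share beside them. The cause of these changes was not tested.

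Further lost hormone calls included Igfbp2 in the Tnc gate with a mitochondrial limit of 10% (-0.97, adjusted p = 0.0548), Igfbp2 in the Dpp4 gate with VCD_Vehicle_NormEnv added (-2.98, 0.0812) or 2-gene gates (-2.88, 0.091), Igf1r in the Fabp4 gate by DESeq2 (-0.31, 0.0636) or a margin of 0.5 (-0.26, 0.0759), and Igfbp7 there without TMM factors (-0.23, 0.071) or with that margin (-0.25, 0.0727). The Igf1r difference of the Tnc gate from the others was lost without TMM factors (-0.10, 0.163), and the P4 change of Igfbp4 in the Fabp4 gate with 2-gene gates (0.75, 0.131). Without TMM factors the hormone calls over all genes of the Fabp4 gate split into 1107 higher and 487 lower, against 815 and 668 with them. The same split was 2333 and 1523 against 1980 and 1886 in the Tnc gate, and 222 and 224 against 316 and 152 in the Gdf10 gate.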

Other observations

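In the Tnc gate, Igfbp3 also came from part of the cells. The 831 cells with at least 2 Igfbp3 UMIs had Ctla2a at 203 CPM and Sfrp4, a secreted Wnt antagonist, at 641 CPM, against 29.6 and 151 CPM in cells of the gate without Igfbp3. A Tnc UMI was found in 36.9% of the former and 44.4% of the latter, at median depths of 11349 and 13363 UMIs. Galnt15, among the 3 genes most like Igfbp3 over the gates, was at 114 and 33.2 CPM. The cells with Igfbp3 were 4.23% to 11.3% of the gate in the 6 libraries with E2 or E2_P4 and 15.5% to 49.1% in the other 6, so that the contrast also compares libraries with different treatments. These genes were picked by the difference, and the values have no test.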
